A study of Mus musculus with 18 samples.

Results

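The first cell fate choice of the mouse embryo separates trophectoderm, the future placenta, from the inner cell mass, and a later choice splits the inner cell mass into epiblast and primitive endoderm. The 8 transcripts described here encode transcription regulators of these choices, and they were read in 18 individual 2-cell embryos, a stage at which neither choice has been made. They were chosen by RefSeq identifier: *Cdx2* (NM_007673), *Eomes* (NM_010136), *Tead4* (NM_011567), *Yap1* (NM_009534), *Gata3* (NM_008091), *Gata4* (NM_008092), *Gata6* (NM_010258) and *Sox17* (NM_011441). All 8 are present among the 26823 transcripts of the count tables, so none was absent from the annotation that was counted.

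The fathers were wild-type (WT) males or Parg(110)-/- males, in which the gene of poly(ADP-ribose) glycohydrolase, the enzyme that degrades poly(ADP-ribose), is disrupted. The paper describes these mice as hypomorphic, with part of the enzyme activity left. All mothers were wild-type 129SVE females mated naturally, and the label of every embryo gives 129SVE as strain background. The genotype on the label is that of the father, so a Parg(110)-/- embryo in this text is the offspring of a Parg(110)-/- male and a wild-type female. Such an embryo is itself heterozygous, and the paper writes it as Parg(110)-/+. The genotype of the embryo therefore changes together with that of the father, and the 2 cannot be told apart in these data. Fathers 1, 2 and 3 were WT and fathers 6, 7 and 8 were Parg(110)-/-, with 3 embryos each, and embryo 2-3 stands for the third embryo of father 2. The question was whether the paternal genotype, which altered the histones retained in sperm in this model, was accompanied by a difference in these regulators before they act.

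In the textbook scheme, TEAD4 binds DNA and needs the coactivator YAP1, which the Hippo kinases keep out of the nucleus in inner cells. In outer cells YAP1 enters the nucleus, and TEAD4 with YAP1 switches on *Cdx2* and, in parallel, *Gata3*, while *Eomes* follows in trophectoderm and its stem cells. In the inner cell mass, GATA6, GATA4 and SOX17 mark and specify primitive endoderm. The 2-cell embryo holds both RNA deposited in the egg and RNA of its own newly activated genome.

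The embryos yielded 2852858 to 13355161 counts each, with a median of 7594021 in WT and 7191377 in Parg(110)-/- embryos. All WT embryos except 2-3 had 13407 or more transcripts with a count, and all Parg(110)-/- embryos except 6-3 had 13401 or fewer. Presence or absence of rare transcripts is to be read beside this difference between the groups, the cause of which was not tested. Levels are given as CPM, the counts per 1000000 counts of an embryo, where 1 count equals 0.0749 to 0.351 CPM. In an embryo with no count, counting error alone allows a level of up to 3 counts, which is 0.225 to 1.05 CPM depending on the embryo. Each of the 7 markers of the 2-cell stage had counts in some embryos, but only 2 of them in all 18. Together the 7 summed to 15.4 to 122 CPM in WT and 37.0 to 188 CPM in Parg(110)-/- embryos. The 7 oocyte markers summed to 579 to 1053 CPM in WT and 566 to 1779 CPM in Parg(110)-/- embryos. The 4 markers of cumulus cells, which surround the egg, reached at most 0.88 CPM in WT and 5.47 CPM in Parg(110)-/- embryos, with *Ptx3* and *Tnfaip6* at 0 in all 18. Of 5 sperm markers, 4 were at 0 throughout, and the fifth, *Prm2*, had a single count. *Parg* itself (NM_011960), which the embryo also inherits from its wild-type mother, lay at 32.0 to 138 CPM in WT and 25.2 to 77.3 CPM in Parg(110)-/- embryos, and the difference did not pass the test (log2 fold change -0.67, SE 0.34, edgeR adjusted p = 0.872), so it is no check of the fathers' label.

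The 8 regulators fell into those that every embryo carried and those that appeared in some embryos or in none. *Yap1*, *Tead4* and *Gata4* had counts in 18 of 18 embryos. *Gata3* had counts in 10, *Gata6* in 6, *Cdx2* in 2 and *Eomes* in 1, and *Sox17* had 0 counts in all 18. An embryo carried 3 to 6 of the 8. The embryo with the most reads, 2-1, carried 6, and the embryo with the fewest reads, 2-3, carried 5. In all, 73 pairs of embryo and member had a count. With every library thinned to the smallest total there were 71, and embryo 2-1 then carried 5.

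**Figure D1:**
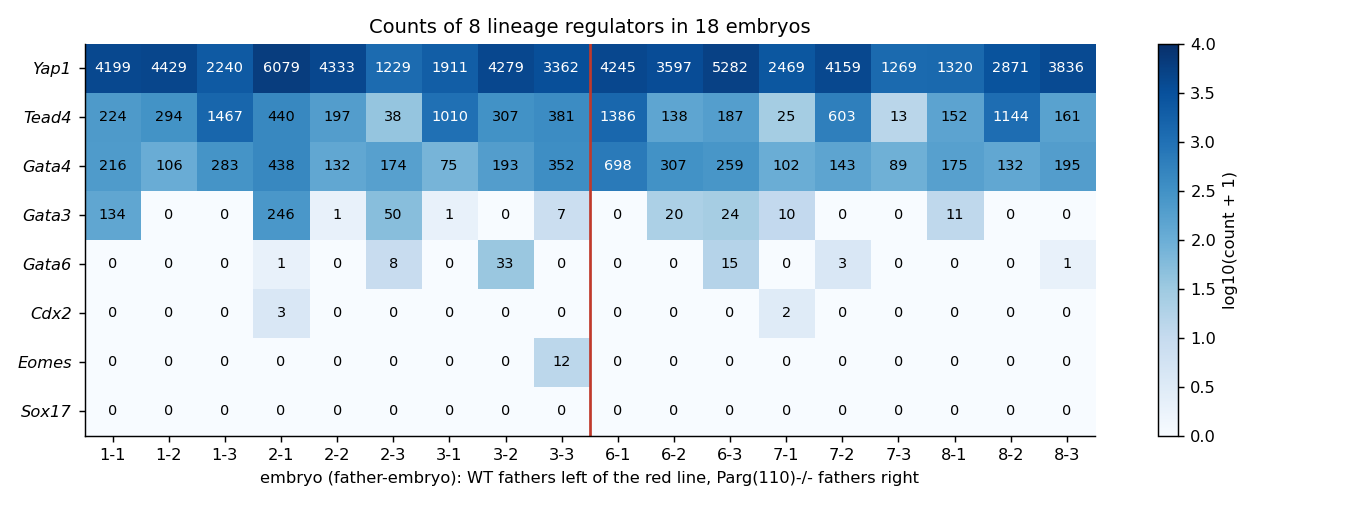
Counts of the 8 regulators (lines) in the 18 embryos (columns, named father-embryo), with the colour giving log10(count + 1) and the number giving the count. *Yap1*, *Tead4* and *Gata4* are filled in every column, while *Gata3*, *Gata6*, *Cdx2* and *Eomes* are filled in 10, 6, 2 and 1 of the 18 and *Sox17* in none.

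*Yap1*, the coactivator that Hippo signalling restrains, was the highest and the most even of the 3 regulators that every embryo carried. The gene spans chr9:7931999-8004596 on the minus strand of mm9 (GENCODE vM1). Its level was 323 (lowest), 431 (median) and 619 CPM (highest) in the 9 WT embryos and 289, 444 and 533 CPM in the 9 Parg(110)-/- embryos. The groups overlapped almost entirely, and only embryo 7-3 lay below the lowest WT embryo. The means were 445 ± 106 CPM (SD, n = 9) and 425 ± 84.1 CPM (SD, n = 9). The difference did not pass the test (log2 fold change -0.06, SE 0.19, edgeR quasi-likelihood adjusted p = 1.0), and the 95% interval of the ratio ran from 0.728 to 1.27. Of the 4 members tested, *Yap1* had the narrowest interval. A second RefSeq form, NM_001171147, shared nearly all of the counts, with summed counts that differed by 0.705%, and gave a log2 fold change of -0.07 (adjusted p = 1.0). The exons of *Yap1* share 116 bases with a noncoding transcript on the opposite strand, RP23-349N15.1, and whether counting used the strand is not given in the sources used here.

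*Tead4*, the DNA-binding partner of YAP1 and the factor placed first in the trophectoderm programme, was present in every embryo but at very different levels. It spans chr6:128174306-128250841 on the minus strand. Its level was 13.3, 40.4 and 211 CPM (lowest, median and highest) in WT embryos and 2.96, 22.4 and 199 CPM in Parg(110)-/- embryos. Both groups held embryos with high and with low levels. Embryos 1-3, 3-1, 6-1 and 8-2 had 211, 175, 111 and 199 CPM, and the next embryo, 7-2, had 64.4 CPM. These 4 embryos came from 4 different fathers, WT and Parg(110)-/- alike. At the other end, embryos 7-1 and 7-3 had 4.95 and 2.96 CPM and were the only ones below the lowest WT embryo, although 7-2, of the same father, was the fifth highest. The group means were 66.8 ± 73.0 CPM (SD, n = 9) in WT and 53.2 ± 64.7 CPM (SD, n = 9) in Parg(110)-/- embryos, and the difference was smaller than the spread in either group (log2 fold change -0.32, SE 0.67, edgeR adjusted p = 0.991). The 95% interval of the ratio was 0.307 to 2.1, so neither a 2-fold rise nor a 2-fold fall of the mean could be told from no change. A second form, NM_001080979, had identical counts in 9 embryos and 4.53% fewer in all, and gave a log2 fold change of -0.29 (adjusted p = 0.995).

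*Gata4*, a primitive endoderm regulator that acts days later, was also counted in all 18 embryos. It spans chr14:63817759-63890529 on the minus strand. Its level was 13.0, 25.4 and 61.0 CPM (lowest, median and highest) in WT embryos and 15.3, 23.8 and 55.9 CPM in Parg(110)-/- embryos. Every Parg(110)-/- embryo lay within the WT range. The means were 29.2 ± 15.9 CPM (SD, n = 9) and 29.6 ± 13.9 CPM (SD, n = 9), with a log2 fold change of 0.03 (SE 0.41, edgeR adjusted p = 1.0) and a 95% interval of the ratio from 0.564 to 1.84.

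**Figure D2:**
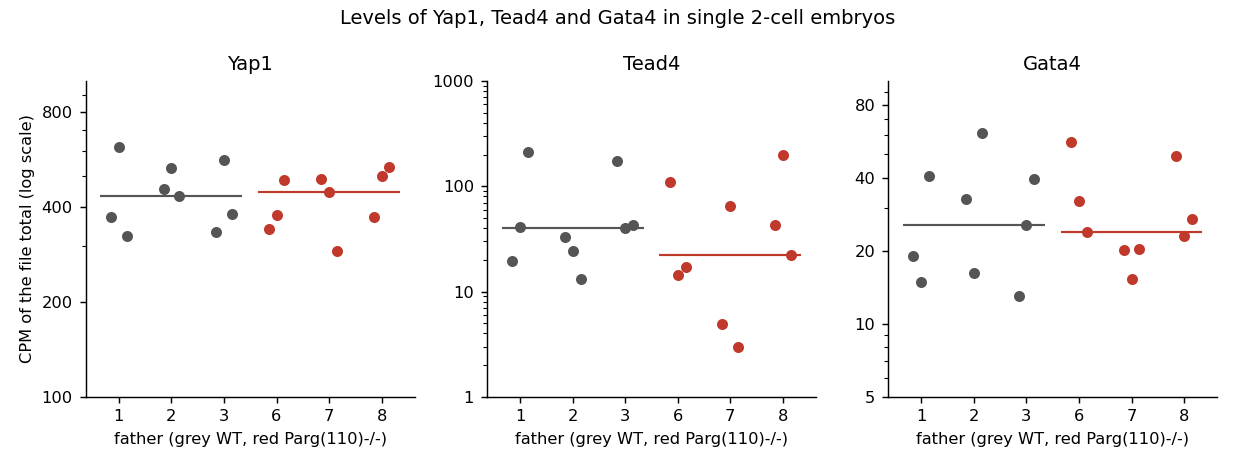
CPM (log scale) of *Yap1*, *Tead4* and *Gata4* in each embryo by father, with WT embryos in grey, Parg(110)-/- embryos in red and a line at the median of each group of 9. *Yap1* stays between 289 and 619 CPM, *Gata4* between 13.0 and 61.0 CPM, and *Tead4* runs from 2.96 to 211 CPM within and across fathers.

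*Gata3*, which acts beside *Cdx2* in trophectoderm, was patchy. It spans chr2:9778705-9811661 on the minus strand and had counts in 6 of 9 WT and 4 of 9 Parg(110)-/- embryos. It reached 10 counts in 3 WT and 4 Parg(110)-/- embryos, since WT embryos 2-2, 3-1 and 3-3 had only 1, 1 and 7 counts. The lowest, median and highest levels were 0, 0.174 and 18.4 CPM in WT and 0, 0 and 3.09 CPM in Parg(110)-/- embryos. The WT embryos 2-1, 2-3 and 1-1 stood apart with 18.4, 17.5 and 11.8 CPM, and the other WT embryos had at most 0.788 CPM. In Parg(110)-/- embryos the values were either 0 or between 1.98 and 3.09 CPM, so the groups overlapped at the low end and no Parg(110)-/- embryo reached the highest 3 WT embryos. The means were 5.42 ± 8.07 CPM (SD, n = 9) and 1.04 ± 1.27 CPM (SD, n = 9). The log2 fold change was the largest in size of the 4 members tested, at -2.39, but its SE was 1.55 and it did not pass the test (edgeR adjusted p = 0.922), and the interval of the ratio, 0.0208 to 1.74, included no change. Without father 2, whose embryos included 2-1 and 2-3, it was -1.07. The exons of *Gata3* share 155 bases with Gm13256 on the opposite strand and 77 bases with 9230102O04Rik on the same strand.

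*Gata6*, the earliest of the primitive endoderm regulators, had counts in 3 of 9 embryos of each group. Embryos 2-1, 2-3 and 3-2 had 1, 8 and 33 counts, which is 0.0749, 2.80 and 4.35 CPM. Embryos 6-3, 7-2 and 8-3 had 15, 3 and 1 counts, which is 1.38, 0.320 and 0.139 CPM. Only embryos 3-2 and 6-3 reached 10 counts, 1 in each group. The means were 0.803 ± 1.62 CPM (SD, n = 9) in WT and 0.204 ± 0.453 CPM (SD, n = 9) in Parg(110)-/- embryos, and the transcript was too rare to be tested. Its exons share 58 bases with 1010001N08Rik on the opposite strand.

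*Cdx2*, the defining regulator of trophectoderm (chr5:148112381-148118846, minus strand), was at or below the limit of detection. WT embryo 2-1 had 3 counts (0.225 CPM) and Parg(110)-/- embryo 7-1 had 2 counts (0.396 CPM), and the other 16 embryos had 0. *Eomes*, the T-box regulator of trophectoderm (chr9:118387330-118395250, plus strand), had 12 counts (1.35 CPM) in WT embryo 3-3 and 0 in the other 17. A second *Eomes* form, NM_001164789, had identical counts. *Sox17*, a SOX-family regulator of primitive endoderm (chr1:4481009-4486494, minus strand), had 0 counts in all 18 embryos, and 3 counts over the summed reads of all 18 correspond to 0.0214 CPM. The 9 Parg(110)-/- embryos together had 0 *Eomes* counts, which allows a mean of up to 0.0439 CPM. No fold change is given for these transcripts, because both groups, or the one with any counts, rested on a single embryo.

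Adjusted over the 15333 transcripts tested (10 or more counts in 3 or more embryos), edgeR called 0 of the 4 members tested in the comparison of 9 Parg(110)-/- with 9 WT embryos at an adjusted p below 0.1, and 0.0% of all transcripts. At an unadjusted p below 0.05, it called 0 of the 4 members and 5.8% of all transcripts (2.48% higher and 3.32% lower in Parg(110)-/- embryos). DESeq2 called 0 of the 4 members as well, but 38 transcripts in all at an adjusted p below 0.1. The median log2 fold change over all transcripts was -0.016. *Yap1* and *Gata4* lay near it and *Tead4* and *Gata3* below it.

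The offspring of every Parg(110)-/- male were then set, 3 embryos at a time, beside the 9 WT embryos. These comparisons share the WT embryos, so their values are given side by side only. For *Yap1* the log2 fold changes were -0.13 (father 6), -0.11 (father 7) and 0.07 (father 8). For *Tead4* they were -0.47, -1.42 and 0.39, with adjusted p-values by edgeR of 0.967, 0.691 and 0.939. For *Gata4* they were 0.38, -0.64 and 0.16, and for *Gata3* -1.88, -3.02 and -2.48. *Gata3* was negative and *Yap1* near 0 for all 3 fathers, whereas *Tead4* and *Gata4* had both signs. The median over all transcripts was -0.121, -0.185 and -0.259 for fathers 6, 7 and 8. In each of the 3 comparisons 0 of the 4 members passed the adjusted threshold, beside 0.00652%, 0.0261% and 0.0% of all transcripts for fathers 6, 7 and 8. At an unadjusted p below 0.05 the count was again 0 of 4 in each, beside 7.81%, 8.67% and 8.53% of all transcripts.

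**Figure D3:**
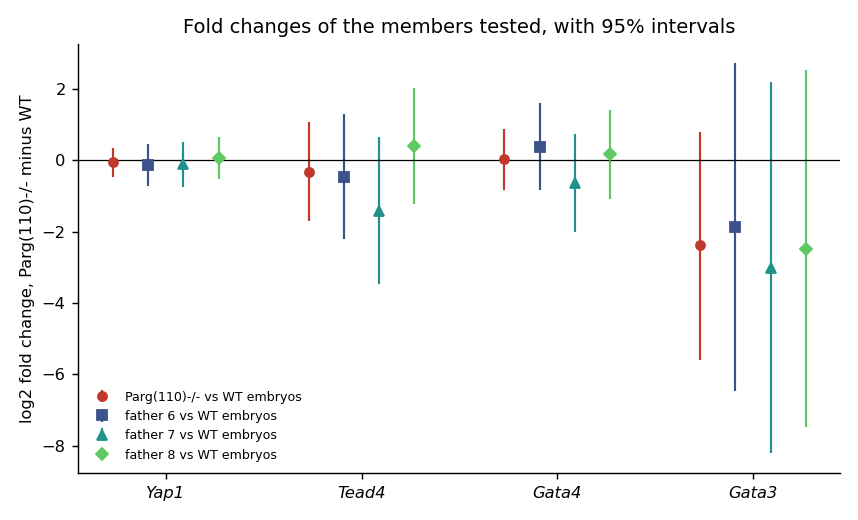
Log2 fold changes (Parg(110)-/- minus WT, edgeR) of *Yap1*, *Tead4*, *Gata4* and *Gata3* for the 9 against 9 embryos and for the offspring of single Parg(110)-/- males, 3 embryos each, against the same 9 WT embryos, with bars giving 95% intervals. All 16 intervals include 0, and in each comparison they are narrowest for *Yap1* and widest for *Gata3*.

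Fathers of one genotype were compared among themselves as well, since embryos of one male share his sperm sample. The 3 *Tead4* levels of father 2 averaged 23.5 ± 9.83 CPM (SD, n = 3), while those of father 1 averaged 90.7 ± 105 CPM and those of father 3 averaged 86.2 ± 77.2 CPM. Among Parg(110)-/- fathers the *Tead4* means were 47.5 ± 54.9 CPM for father 6, 24.1 ± 34.9 CPM for father 7 and 88.2 ± 96.9 CPM for father 8. Embryos of one father ranged from 13.3 to 32.9 CPM for father 2 and from 19.7 to 211 CPM for father 1. On the log2 CPM scale, the SD between embryos of one father was 1.63 for *Tead4*, and the father means had an SD of 1.1, where the spread within fathers by itself would give 0.94. For *Gata4* these values were 0.698, 0.398 and 0.403. For *Yap1* they were 0.351, 0.116 and 0.203, so its father means lay closer together than the spread within fathers would give. The joint test of fathers within genotype called 0 of the 4 members and 0.0% of all transcripts at an adjusted p below 0.1, with edgeR adjusted p-values of 0.817 for *Tead4*, 0.999 for *Yap1*, 0.944 for *Gata3* and 0.969 for *Gata4*. At an unadjusted p below 0.05 it called 0 of the 4 members and 6.76% of all transcripts.

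Because the study looked at embryos one by one, each Parg(110)-/- embryo was also placed against the range of the 9 WT embryos, without a test. Levels were scaled by TMM, which corrects totals for composition. Among the 4 members tested, 3 of 36 values (8.33%) lay below the lowest WT embryo and 0 (0.0%) above the highest. Over all transcripts tested, 8.81% lay below and 10.7% above. The 3 low values were *Tead4* in embryos 7-1 and 7-3 and *Yap1* in embryo 7-3, all from father 7. *Gata3* could not lie below, since its lowest WT level was 0 CPM, and the transcripts tested include others like it. With *Gata3* counted, the share below was near that of transcripts in general. Of the rarer members, *Cdx2* in embryo 7-1 was above the WT range, on 2 counts.

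The spread over the 18 embryos separated the 3 members that every embryo carried. The coefficient of variation (SD over mean CPM) of *Yap1* was 21.5%, and only 5.52% of the 779 transcripts within 2-fold of its mean level varied less. That of *Gata4* was 49.2%, with 12.1% of 3681 transcripts of similar level varying less. That of *Tead4* was 112%, with 91.8% of 2872 transcripts of similar level varying less, and its highest level was 71.4 times its lowest. *Tead4* was therefore more variable than most transcripts of its abundance, and *Yap1* and *Gata4* were less variable than most. *Gata3* had a coefficient of variation of 187%, and 65.8% of 4215 similar transcripts varied less. Counting error at the mean count accounts for 1.72% (*Yap1*), 6.65% (*Gata4*), 4.69% (*Tead4*) and 18.9% (*Gata3*), far below the values seen. The variation includes that of amplifying the cDNA of a single embryo, and these sources cannot be told apart in these data.

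**Figure D4:**
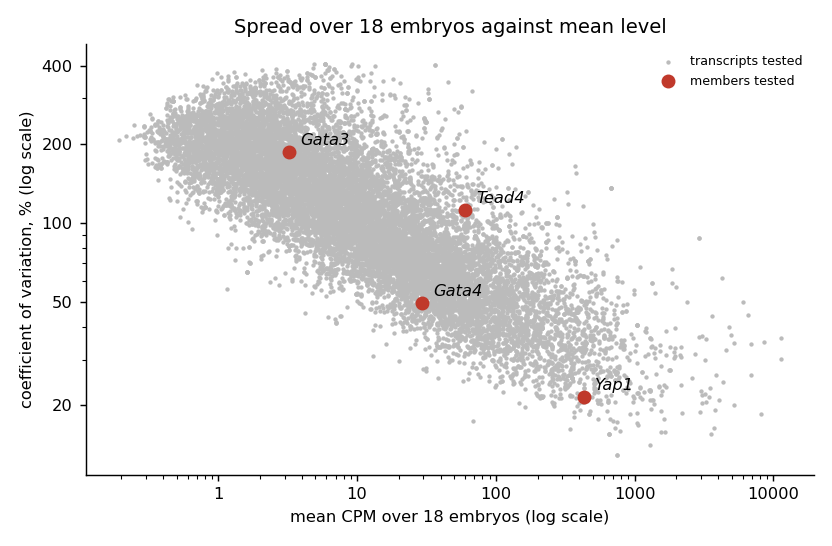
Coefficient of variation (%, log scale) against mean CPM (log scale) over the 18 embryos for all 15333 transcripts tested (grey) and the 4 members tested (red). *Yap1* (21.5%) and *Gata4* (49.2%) sit in the lower part of the cloud at their level, *Tead4* (112%) in its upper part and *Gata3* (187%) inside it.

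Levels were compared between genes per kilobase of annotated exon, as mean CPM per kb over the 18 embryos. The order was *Yap1* (47.0 ± 10.1, SD, n = 18), *Tead4* (16.7 ± 18.7), *Gata4* (7.52 ± 3.7) and *Gata3* (0.813 ± 1.52), followed by *Gata6* (0.158), *Eomes* (0.0181) and *Cdx2* (0.0153). *Yap1* was above *Tead4* in 15 of 18 embryos and above *Gata4* in 18 of 18. *Tead4* was above *Gata4* in only 11 of 18, so these neighbours had no fixed order. *Gata4* was above *Gata3* in 18 of 18 embryos. In the 3 exceptions to the first order, 1-3, 3-1 and 8-2, *Tead4* per kb exceeded its coactivator *Yap1*.

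The 3 members present in all embryos did not rise and fall together. Over the 18 embryos, *Tead4* and *Yap1* had a Pearson correlation of -0.04 and a Spearman correlation of -0.1 on log2 CPM scaled by TMM. For *Tead4* and *Gata4* these were 0.07 and -0.04, and for *Yap1* and *Gata4* -0.31 and -0.3. The points share their libraries, their scaling and, by 3, their fathers. Among 10758 transcripts that reached 10 counts in 9 or more embryos, the pattern most like that of *Tead4* was that of *Litaf* (Spearman 0.82), then *Cenpt* (0.79) and *Tatdn1* (0.78). Those most like *Yap1* were 2 forms of *Spin1* (0.84 and 0.83) and *Siah2* (0.8), and those most like *Gata4* were 3 forms of *Dnmt3b* (0.82, 0.82 and 0.81). Forms of 1 gene share reads and are not separate matches. These values are the highest of 10758 over only 18 embryos, and picking the highest of so many raises them. Whether they exceed what unrelated transcripts would give was not tested.

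The window that RefSeq gives around the annotated start is shown for *Yap1* and *Cdx2*, the members with the highest and the lowest mean level per kilobase among those with a count, with every CG dinucleotide in capitals, since promoters rich in CG differ from others in how they are packaged in sperm and embryo. The windows are from GRCm38.p6, another build than the counts, and lie at chr9:8004547-8004846 (*Yap1*) and chr5:147307200-147307499 (*Cdx2*), both on the minus strand.
Yap1: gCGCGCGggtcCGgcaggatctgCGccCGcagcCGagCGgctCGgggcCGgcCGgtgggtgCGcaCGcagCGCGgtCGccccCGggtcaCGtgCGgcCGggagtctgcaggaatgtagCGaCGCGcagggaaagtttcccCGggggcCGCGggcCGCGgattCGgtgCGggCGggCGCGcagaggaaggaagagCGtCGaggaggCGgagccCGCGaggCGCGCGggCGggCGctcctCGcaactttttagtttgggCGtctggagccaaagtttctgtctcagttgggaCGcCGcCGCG
Cdx2: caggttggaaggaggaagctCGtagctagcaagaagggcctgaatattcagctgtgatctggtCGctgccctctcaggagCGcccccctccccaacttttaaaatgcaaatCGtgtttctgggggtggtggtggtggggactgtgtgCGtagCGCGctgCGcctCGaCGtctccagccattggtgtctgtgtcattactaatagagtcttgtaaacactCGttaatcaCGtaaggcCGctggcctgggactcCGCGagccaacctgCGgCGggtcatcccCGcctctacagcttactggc
The *Yap1* window held 49 CG dinucleotides, more than 99.0% of 32851 mouse windows of that length, and the *Cdx2* window held 18, more than 70.3% of them, where the median is 7. The windows of *Gata3* and *Eomes*, not shown, held 22 and 10. No window was available for *Tead4* and *Gata4*, the other members that every embryo carried, or for *Sox17*, and none is given here for *Gata6*. The motif GGAATG bound by TEAD factors, searched on both strands, occurred in the *Yap1* window and in 14.7% of all windows, and these letters were not in the windows of *Cdx2*, *Gata3* and *Eomes*. The match is a description of the sequence only.

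The Hippo pathway that controls YAP1 was represented unevenly. Of 17 genes listed, 7 had counts in every embryo, 4 had counts in only 1 to 8 embryos, and 15 were tested. Of these, 0 passed at an adjusted p below 0.1 and 0 at an unadjusted p below 0.05, beside 0.0% and 5.8% of all transcripts. The median log2 fold change was -0.08, beside -0.02 for all transcripts. *Nf2*, which encodes the upstream activator merlin, had the highest CPM of the list, with 669 ± 198 CPM (SD, n = 9) in WT and 798 ± 358 CPM in Parg(110)-/- embryos (log2 fold change 0.26, adjusted p = 0.966). The kinases *Stk3* (MST2) and *Stk4* (MST1) had 72.6 ± 66.1 and 35.4 ± 20.4 CPM in WT and 116 ± 74.1 and 33.4 ± 24.4 CPM in Parg(110)-/- embryos. *Wwtr1* (TAZ), the close relative of YAP1, had 23.8 ± 20.9 CPM in WT and 9.33 ± 10 CPM in Parg(110)-/- embryos, with a log2 fold change of -1.33 (SE 0.69, edgeR adjusted p = 0.886) that did not pass the test.

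Further trophectoderm genes were scarcer. Of 14 listed, 3 were in every embryo and 10 were tested, with 0 called after adjustment, while 0 were higher and 2 lower at an unadjusted p below 0.05, beside 2.48% higher and 3.32% lower over all transcripts. The median log2 fold change was -0.38, beside -0.02 for all transcripts. Those 2 were *Ets2*, an ETS factor of trophoblast, with 22.7 ± 32.7 CPM in WT and 4.29 ± 5.65 CPM in Parg(110)-/- embryos (log2 fold change -2.37, SE 1.1, edgeR adjusted p = 0.839), and *Gata2*, with 4.6 ± 6.01 and 0.512 ± 1.03 CPM (log2 fold change -3.16, SE 1.48, edgeR adjusted p = 0.839). The highest single embryo had 102 CPM for *Ets2* and 16.6 CPM for *Gata2*, a WT embryo in both cases, so the WT means lean on single embryos. *Tfap2c*, an AP-2 factor that also acts on *Cdx2*, had the highest CPM of the list, at 63.3 ± 72.3 CPM in WT and 55.0 ± 37.8 CPM in Parg(110)-/- embryos. *Tfap2a* had 0.338 ± 0.515 and 1.44 ± 2.34 CPM (adjusted p = 0.943).

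Of 14 further primitive endoderm genes, 3 were in every embryo and 10 were tested. After adjustment 0 of these were called, and 0 at an unadjusted p below 0.05, beside 0.0% and 5.8% of all transcripts. The median log2 fold change was -0.16, beside -0.02 for all transcripts. *Lamb1*, a laminin chain of the basement membrane, had the highest CPM of the list, at 71.6 ± 34.6 CPM in WT and 59.4 ± 29.5 CPM in Parg(110)-/- embryos. *Dab2*, an endocytic adaptor of endoderm, had 41.9 ± 32.8 and 48.7 ± 21.3 CPM. *Col4a1*, a collagen of the same membrane, had counts in 8 of 9 WT embryos and 1 of 9 Parg(110)-/- embryos, with means of 2.51 ± 2.53 and 0.824 ± 2.47 CPM, and the difference did not pass the test (log2 fold change -1.56, SE 1.58, edgeR adjusted p = 0.969). Most WT embryos also had more transcripts with a count than most Parg(110)-/- embryos, as given above.

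Of 13 paralogs of the 8 regulators, 2 were in every embryo, 1 (*Cdx4*) in none and 6 were tested, with 0 called after adjustment and 1 lower at an unadjusted p below 0.05, beside 3.32% lower over all transcripts. That gene was *Gata2*, which is also in the trophectoderm list. *Wwtr1*, *Tead1*, *Tead2* and *Tead3* are also in the Hippo list, so of the 6 tested only *Gata1* is in no other list. The median log2 fold change was -0.62, beside -0.02 for all transcripts. *Gata1*, a blood lineage factor, was in all 18 embryos at 0.347 to 60.5 CPM (log2 fold change -0.05, adjusted p = 1.0). Within the GATA family, *Gata1* and *Gata4* were thus read in every embryo and *Gata2*, *Gata3*, *Gata5* and *Gata6* in 12, 10, 4 and 6 of 18. Within the TEAD family, *Tead4* was in every embryo and *Tead1*, *Tead2* and *Tead3* in 13, 14 and 8. *Tead3* had means of 1.29 ± 2.25 CPM in WT and 2.86 ± 7.71 CPM in Parg(110)-/- embryos (adjusted p = 0.978).

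**Figure D5:**
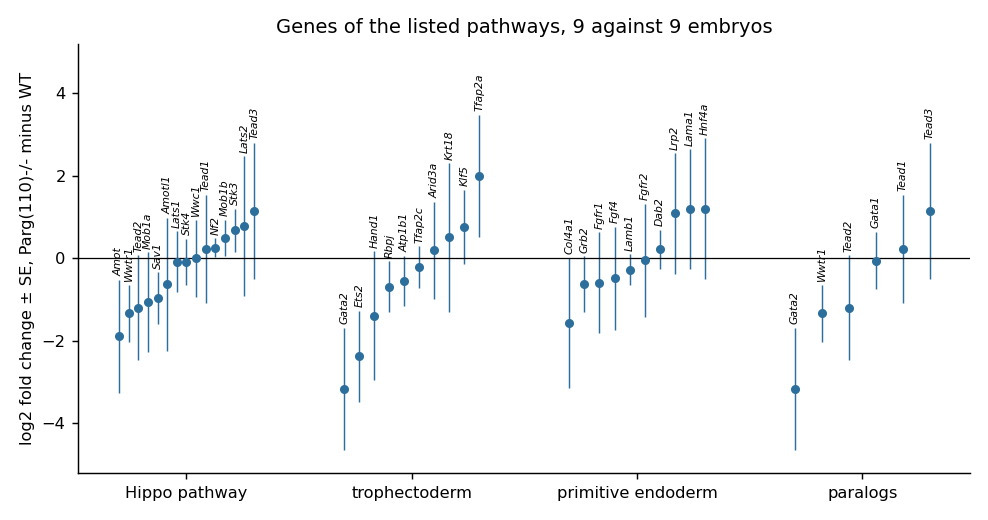
Log2 fold changes (9 Parg(110)-/- minus 9 WT embryos, edgeR) with SE for every tested gene of the 4 lists. Values lie on both sides of 0 in each list, and *Gata2* (-3.16) and *Ets2* (-2.37) are the lowest.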

How the data were processed

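The authors isolated and amplified RNA of single 2-cell embryos (WT-Ovation One-Direct kit), sequenced it on an Illumina HiSeq, mapped reads to mm9 with RUM, excluded reads with more than 1 location, and deposited the raw counts of each RefSeq transcript. The submitters' processing notes name DESeq 1.10.0. The counting tool, annotation release and strand setting are not given in the sources used here. Amplification can lose rare transcripts and widen the spread between embryos, and transcripts of one gene share reads. The members and lists were chosen with earlier results of these data known.

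Symbols were matched for 97.4% of 26823 transcripts. The 15333 transcripts that reached 10 counts in 3 or more of 18 embryos were tested after TMM scaling in edgeR 4.0.16 (R 4.3.3, quasi-likelihood test), Benjamini-Hochberg adjusted together, and called below 0.1. SE is the log2 fold change over the square root of F. The comparisons were the genotypes, the fathers within genotype, and each Parg(110)-/- father against the 9 WT embryos. The tests were also tested on simulated data. Embryos of 1 father were treated as independent, and p-values measure the spread between embryos. Within groups, all 72 embryo pairs exceeded sampling noise widely (chi-squared per degree of freedom at least 110), so none was counted as the same library.

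Named genes were the 8 members, the 3 most abundant transcripts of each list with the smallest p in each direction, and the 3 transcripts most like each abundant member by Spearman correlation. Of the stage, oocyte, cumulus and sperm markers, summed levels and those at 0 are given. Exon lengths and positions are from GENCODE vM1, sequences from RefSeq GRCm38.p6. Alternatives were DESeq2 1.42.0, limma 3.58.1 with father as random effect, other scalings, filters and a threshold of 0.05, counts summed per father, a block for the embryo number, and omission of single fathers or embryos, the last added after seeing the data. Floors and intervals of counts cover counting error only.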

Additional observations from a re-analysis of the deposited data

Results flagged for a closer look

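In 4 of 13 groups of 9 embryos examined, 1 embryo lay far from the others by its gap to the nearest value as a share of the whole range, a criterion that chance alone meets in about 1 in 20 groups. *Cdx2* in WT embryo 2-1 (3 counts) and in Parg(110)-/- embryo 7-1 (2 counts) each had a share of 1.0, since all other embryos of the group were at 0. *Eomes* in WT embryo 3-3 (12 counts) had a share of 1.0 for the same reason. *Gata6* in Parg(110)-/- embryo 6-3 (15 counts, 1.38 CPM) had a share of 0.767, with the next embryo, 7-2, at 0.320 CPM. The criterion assumes values without many zeros, which these groups do not offer.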

How the results depend on the processing

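Of 394 recomputed values, all counts of members called stayed at 0. For the 9 against 9 embryos the number of transcripts called was 0, but 38 by DESeq2 and 0 to 5 with a father or embryo left out (5 without father 6, 2 without embryo 6-1 and 2 without embryo 7-1). For fathers within genotype it was 0 and became 702 with no filter. For father 6 it was 1, and became 7 with no filter, 195 by DESeq2 and 0 to 1 with a WT father left out (0 without father 1 or 3). For father 7 it was 4, and became 10 with DESeq2-type size factors, 2 with the file total only, 29 with no filter, 0 when 10 counts were required in 5 embryos, 385 by DESeq2, 2 at a threshold of 0.05 and 0 to 0 with any WT father left out. For father 8 it was 0 and became 298 by DESeq2. The cause was not tested.

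With a father or embryo left out, the log2 fold change changed sign for *Gata4* (-0.18 without father 6 to 0.27 without father 7), *Tead4* (-0.92 without embryo 8-2 to 0.17 without embryo 1-3) and *Yap1* (-0.13 without father 8 to 0.02 without embryo 1-2), none of them called. With counts summed per father, the log2 fold changes were 0.0 for *Yap1*, -0.03 for *Tead4*, 0.11 for *Gata4* and -2.78 (SE 1.37) for *Gata3*, and none was called. *Tead4* in father 8 ranged from -0.02 to 0.71, the lowest without father 2. *Gata3* kept its sign, from -2.94 without father 3 to -1.07 without father 2, and was -1.18 with father as a random effect. DESeq2 gave no adjusted p for *Tead4* in fathers 6 and 7.

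In the fit with a replicate block of embryo numbers, 0 transcripts were called and the log2 fold changes were -0.56 for *Tead4*, -1.38 (SE 2.07) for *Gata3*, -0.03 for *Yap1* and 0.11 for *Gata4*. Embryos with the same number did not deviate together (median correlation 0.006, against -0.001 for other numbers), so the numbers do not pair them. At this depth, an embryo with 0 counts may hold up to 1.05 CPM in the smallest library. Presence and absence of *Gata6*, *Cdx2* and *Eomes*, and of *Gata3* in some embryos, rest on a few counts.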

Other observations

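Beside the genes named by rule, a few relatives of the regulators were counted in a single embryo. They were chosen after their values were seen. *Tbr1*, a T-box relative of *Eomes*, had 124 counts in WT embryo 3-3 and 0 in the other 17, and that embryo was also the one with *Eomes* counts. *Elf5*, a trophoblast stem cell factor, had 64 counts in Parg(110)-/- embryo 7-2 and 0 elsewhere. *Cdx1*, a relative of *Cdx2*, had 14 counts in a single Parg(110)-/- embryo, and *Sox18*, a relative of *Sox17*, had 12 in another.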
